A study of Mus musculus with 6 samples.

Results

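Genes for 10 enzymes and cofactors that modify histones together with the Paf1 complex were described in sorted mouse osteoblasts labelled as knockout for Cdc73 and in wildtype controls. They were taken by symbol from a list of known enzymes, drawn up with earlier results of these data known, and all 10 of 10 symbols matched 1 row each among the 27179 gene IDs of the count table. Rnf20, Rnf40, Ube2a, Ube2b and Wac belong to the machinery that attaches ubiquitin to histone H2B. Setd1a, Setd1b, Dot1l, Setd2 and Suv39h1 encode histone methyltransferases. RNA sequencing was done on calvarial cells of C57Bl/6J pups aged 5 days. A conditional knockout of Cdc73, also named Hrpt2, had 3 libraries (KO, titled Flox by the submitters), and wildtype mice had 3 libraries (WT). Cells of both genotypes were digested out of the skull bones with collagenase and sorted in the same way for transgenic GFP that depends on Osteocalcin-Cre, a recombinase made in osteoblasts, and the series title calls the deletion osteoblast-specific. Whether the wildtype mice carried the Cre transgene as well is not stated for them separately. The labels do not say whether a library came from 1 animal or from a pool, so the p-values reflect how far these libraries differed among themselves, and that spread may be technical.

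Paf1, Ctr9, Leo1, Rtf1, Cdc73 and Skic8 form the Paf1 complex, which travels with RNA polymerase II along transcribed genes. Through its Rtf1 subunit the complex stimulates the ubiquitin-conjugating enzymes RAD6A and RAD6B (Ube2a, Ube2b) and the ligase pair RNF20 and RNF40 to ubiquitinate H2B, and this mark in turn favours methylation of H3K4 by SET1-type enzymes and of H3K79 by DOT1L. SETD2 writes trimethylation of H3K36 behind the elongating polymerase, and parafibromin, the product of Cdc73, has been reported to bind the H3K9 methyltransferase SUV39H1. These marks and proteins were not measured here, only the transcripts of the enzymes.

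Library totals ranged from 14837272 to 16380767 counts in KO and from 13591925 to 20993962 in WT. WT 1 was closer to the KO libraries than to the other controls on one measure and not on another. Across genes its log2 CPM (CPM being counts scaled to a common library total, with TMM factors) correlated at Pearson's r of 0.973 to 0.983 with the KO libraries, against 0.94 and 0.945 with WT 2 and WT 3. On raw counts, where abundant genes weigh most, chi-square per degree of freedom was 52.8, 72.5 and 69.5 between WT 1 and KO 1, 2 and 3, against 30.3 with WT 2 and 54.1 with WT 3. At equal totals, 16940 to 17796 gene IDs would have at least 1 count in a KO library, against 17389 in WT 1, 14608 in WT 2 and 15645 in WT 3. Cdc73 itself measured 14.4 ± 0.378 CPM in KO and 18.3 ± 4.84 CPM in WT (SD, n = 3 each). By library it was 13.98, 14.73 and 14.40 CPM in KO 1, 2 and 3, against 20.50, 12.80 and 21.73 CPM in WT 1, 2 and 3. WT 1 and WT 3 lay above every KO library, and WT 2 alone made the groups overlap. Its log2 fold change, KO over WT, was -0.36 ± 0.22 (SE) with an adjusted p of 0.428 in edgeR, so its whole-gene count did not check the labels. Higher and lower are therefore meant by label. The osteoblast markers fixed for the check were detected in every library, with summed levels of 247700 to 365800 CPM in KO and 292000 to 323500 CPM in WT and a negative fold change for 10 of 12. Col1a1 and Col1a2 made up most of these sums. Only Sp7 had every KO library below every WT library, as did 9.81% of all genes tested. Markers of other cells were present too. All 10 chondrocyte markers had higher means in KO, with summed levels of 11210 to 24700 CPM in KO and 3470 to 9487 CPM in WT, and none was at 0 in any library. All 8 endothelial genes (117.8 to 202.8 CPM in KO and 37.14 to 116.9 CPM in WT) and all 8 macrophage genes (121.2 to 276.6 CPM in KO and 67.77 to 103.5 CPM in WT) ran the same way, again with none at 0. Neutrophil genes (7 of 7 positive, 53.23 to 180.7 CPM in KO and 19.54 to 51.65 CPM in WT) and red cell genes (5 of 5 positive, 32.66 to 253.4 CPM in KO and 9.459 to 75.28 CPM in WT) each had 1 marker, Elane and Alas2, at 0 in at least 1 library. Osteoclast genes (3 of 4 tested positive, 344.9 to 462.5 CPM in KO and 315.2 to 515.5 CPM in WT, with Ocstamp, Dcstamp and Calcr at 0 in some library) and muscle genes (1 of 3 tested positive, 5.101 to 25.92 CPM in KO and 4.299 to 37.28 CPM in WT, with Myh3 and Ckm at 0 in some library) had overlapping sums. Ctsk made up most of the osteoclast sum. Acp5, and Ocstamp and Dcstamp at no more than 1.38 CPM, each had every KO library above every WT library, as did 10.6% of all genes tested. In a bulk sample, fewer cells of a type and less RNA per cell cannot be told apart, and the part of these other cells in the enzyme values was not tested.

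All 10 enzyme genes were expressed in every library, with 111 to 1936 counts each, and all 10 passed the filter on low counts. No member passed the comparison of KO with WT, made with the quasi-likelihood test of edgeR and adjusted by Benjamini-Hochberg over all 13505 genes tested. Fold changes, given throughout as log2 of KO over WT with their standard errors, lay between -0.32 for Suv39h1 and 0.40 for Setd1a, and the smallest adjusted p was 0.402, for Wac. The member count of 0 stands beside 0% of all genes called at an adjusted p under 0.05. At an unadjusted p under 0.05 there were also 0 members, where 14.6% of all genes (1974) reached that level. DESeq2, which called 2.16% of the genes it adjusted, and limma voom each called 0 members as well. A positive fold change was seen for 6 members and a negative one for 4, and the median was 0.21 against -0.01 over all genes tested. The median absolute fold change was 0.25 for the members and 0.29 for all genes on the same scale. The 95% intervals show how much change this fit of all 6 libraries leaves room for, and they do not cover the choice of controls. Among the 10 members the lowest limit was 0.537-fold, for Suv39h1, and the highest was 1.91-fold, for Setd1a.

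**Figure D1:**
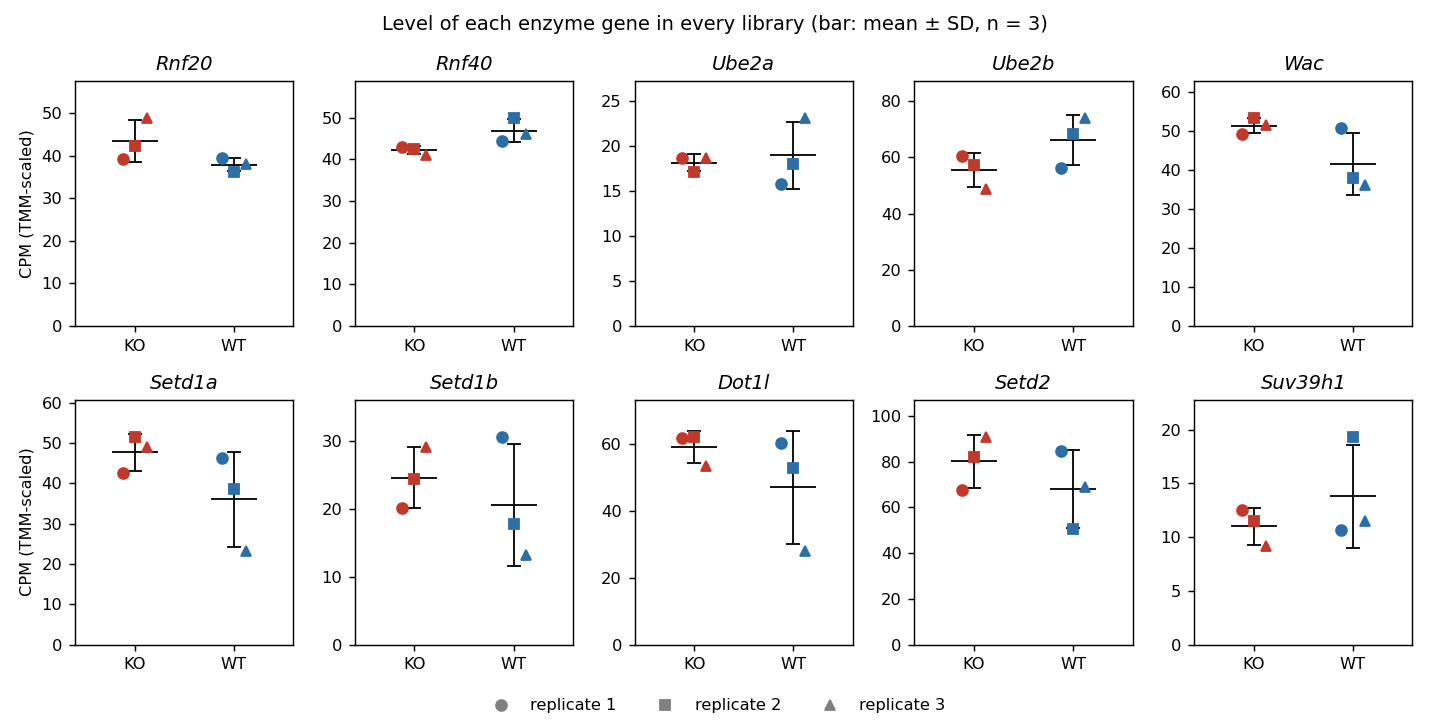
TMM-scaled CPM of each enzyme gene (vertical axis, starting at 0) in the 3 KO and the 3 WT libraries, with the mean and SD as bars and the marker shape giving the replicate number. KO and WT libraries overlap for 9 of the 10 genes, and in Rnf40 the KO libraries (41.13 to 42.96 CPM) sit just below the WT libraries (44.41 to 49.80 CPM).

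The ubiquitin-conjugating enzymes were the shortest transcripts of the group. Ube2b (gene ID 22210, chromosome 11, 51985138 to 52004145 in mm10) encodes RAD6B. It measured 60.60, 57.40 and 48.87 CPM in KO 1, 2 and 3, against 56.35, 68.44 and 73.92 CPM in WT 1, 2 and 3. WT 1 lay inside the KO range, while WT 2 and WT 3 lay above every KO library. Its log2 fold change came to -0.25 ± 0.16 (SE), with a 95% interval of -0.62 to 0.12 and an adjusted p of 0.452. Ube2a (gene ID 22209, chromosome X, 36874295 to 36884222), the closely related RAD6A, measured 18.66, 17.10 and 18.67 CPM in KO and 15.82, 18.01 and 23.05 CPM in WT. Here the 3 KO libraries fell between the lowest and the highest control, and the fold change was -0.06 ± 0.19 (interval -0.48 to 0.35). Leaving out 1 library at a time gave values of -0.2 (without WT 1) to 0.09 (without WT 3), and WT 1 as the only control gave 0.19. Between the paralogs, the Ube2a count amounted to 0.308, 0.298 and 0.382 of the Ube2b count in KO and 0.281, 0.263 and 0.312 in WT, so the balance of both genes overlapped between genotypes. How reads that match both paralogs were counted is not given in the sources used here.

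RNF20 and RNF40 are RING-domain proteins that act as an obligate pair in the H2B ubiquitin ligase. Rnf20 (gene ID 109331, chromosome 4, 49632005 to 49656887) measured 39.24, 42.39 and 48.78 CPM in KO and 39.47, 36.30 and 37.97 CPM in WT. KO 2 and KO 3 were above all controls, and KO 1 lay just below WT 1. This gave 0.20 ± 0.15 as the fold change, with an interval of -0.14 to 0.53 and an adjusted p of 0.512. Without KO 3 it was 0.09. Rnf40 (gene ID 233900, chromosome 7, 127588698 to 127603605) measured 42.96, 42.39 and 41.13 CPM in KO, against 44.41, 49.80 and 46.15 CPM in WT. It was the only member whose groups did not overlap, with every KO library below every WT library, a pattern found in 9.81% of all genes tested. The edgeR test did not call this gap, with a fold change of -0.15 ± 0.14 (interval -0.46 to 0.16, adjusted p = 0.589). Antisense transcripts are annotated across Rnf40, Wac, Dot1l and Suv39h1, and opposite-strand genes overlap Ube2a, Setd1a and Setd1b. Without stated strand use, their reads cannot be separated from those of the enzymes. Genes on the same strand overlap Setd1a (Gm49388, protein-coding), Ube2b (Gm26551) and Setd2 (Gm42763), and strand would not separate these.

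Because the ligase partners leaned in opposite directions, their ratio within each library was also taken, a measure chosen after the values were seen and therefore given without a test. The Rnf20 count was 0.913, 1.0 and 1.19 times the Rnf40 count in KO 1, 2 and 3, and 0.889, 0.729 and 0.823 times in WT 1, 2 and 3. The mean ratio was 1.03 ± 0.139 in KO and 0.814 ± 0.0803 in WT (SD, n = 3 each). All KO ratios exceeded all WT ratios, though KO 1 and WT 1 differed by little. Rnf40 alone already separated the groups and Rnf20 leaned the other way, so this separation was nearly given in advance and adds no support. The ratio of Setd1a to Setd1b overlapped, at 1.68 to 2.12 in KO and 1.51 to 2.16 in WT. The Rnf20 to Rnf40 ratio does not depend on the scaling of the libraries, since both counts come from the same one. It does not remove differences in GC content (47.9% in Rnf20, 56.1% in Rnf40).

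WAC is an adaptor that links RNF20 and RNF40 to RNA polymerase II. Wac (gene ID 225131, chromosome 18, 7868825 to 7929028) had the smallest p of the 10 members. Its level was 49.32, 53.23 and 51.42 CPM in KO, against 50.75, 38.04 and 36.12 CPM in WT. WT 1 was inside the KO range, and only WT 2 and WT 3 were lower. With all 6 libraries the fold change was 0.30 ± 0.17, with an interval of -0.08 to 0.68. Without WT 1 it was 0.45 (adjusted p = 0.0959), without WT 3 it was 0.20, and against WT 1 alone it was 0.01. The 3 genes whose centred log2 CPM followed Wac most closely over the 6 libraries, by root mean square difference among 9618 genes with at least 5 CPM, were Ttll4 (0.021), Tab2 (0.0328) and Ppp1r12b (0.0348). All 3 were likewise lowest in WT 2 and WT 3, and the same 6 libraries lie behind every gene.

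SETD1A and SETD1B are the catalytic subunits of the SET1 complexes, which place most H3K4 trimethylation at promoters. Setd1a (gene ID 233904, chromosome 7, 127777389 to 127800122) measured 42.54, 51.50 and 48.95 CPM in KO, against 46.21, 38.53 and 23.23 CPM in WT. WT 1 again lay among the KO libraries, and WT 3 was the lowest of all. Setd1a had a fold change of 0.40 ± 0.24 (interval -0.13 to 0.93, adjusted p = 0.414), the largest in size among the members with all 6 libraries. Without WT 3 it was 0.16, below Suv39h1 (-0.44), Setd2 (0.23), Wac (0.20), Rnf20 (0.19), Ube2b (-0.18) and Rnf40 (-0.17) in size. Setd1b (gene ID 208043, chromosome 5, 123142040 to 123168630) measured 20.10, 24.39 and 29.12 CPM in KO, against 30.56, 17.80 and 13.20 CPM in WT. Its highest and its lowest library were both controls. The mean fold change of 0.25 ± 0.29 (interval -0.40 to 0.91) turned to -0.33 with WT 1 as the only control. It was 0.0035 without WT 3, 0.10 without KO 3 and 0.15 without WT 2.

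DOT1L is the H3K79 methyltransferase and, unlike the other methyltransferases of the group, has no SET domain. Dot1l (gene ID 208266, chromosome 10, 80755101 to 80795461) measured 61.80, 62.13 and 53.56 CPM in KO, against 60.37, 52.86 and 28.00 CPM in WT. A single library, WT 3, was far below the other 5, which ranged from 52.86 to 62.13 CPM. For Dot1l the fold change was 0.33 ± 0.25 (interval -0.24 to 0.90, adjusted p = 0.518), and without WT 3 it was 0.05 ± 0.15. Setd2 (gene ID 235626, chromosome 9, 110532500 to 110618633), which encodes the main enzyme for H3K36 trimethylation, measured 67.74, 81.93 and 90.82 CPM in KO and 84.63, 50.56 and 69.02 CPM in WT. For this gene WT 2, not WT 3, was the low library, and the fold change was 0.23 ± 0.21 (interval -0.23 to 0.70, adjusted p = 0.573). Without WT 2 it was 0.05, and without KO 3 it was 0.12. Against WT 1 alone, Dot1l was at -0.04 and Setd2 at -0.09.

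SUV39H1 trimethylates H3K9 and is best known from heterochromatin. Suv39h1 (gene ID 20937, chromosome X, 8061171 to 8074760) was the least covered member, at 12.48, 11.47 and 9.132 CPM in KO, against 10.67, 19.33 and 11.46 CPM in WT. WT 2 alone was high, and WT 1 and WT 3 lay within the KO range. The fold change was -0.32 ± 0.26, with an interval of -0.90 to 0.26 and an adjusted p of 0.537. It was -0.02 without WT 2, -0.49 without WT 1 and 0.04 against WT 1 alone. In the same libraries 10 of 12 markers of cycling cells had negative fold changes (median -0.42), with summed levels of 309.4 to 347.2 CPM in KO and 386.1 to 432.5 CPM in WT. WT 2, the library highest in Suv39h1, was also the highest in summed cycling markers. WT 1 (394.4 CPM) and WT 3 (386.1 CPM) were above every KO library in these markers too, but not in Suv39h1. The part of cell division in the Suv39h1 value was not tested.

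The order of the levels was read per length, as CPM per kilobase of the union of annotated exons. Ube2b led in every library, at 26.2 ± 2.85 CPM per kb in KO and 31.2 ± 4.23 in WT (SD, n = 3 each). It stood clear of Ube2a, the next in order, at 7.99 ± 0.399 CPM per kb in KO and 8.35 ± 1.63 in WT. From Ube2a down through Rnf40, Wac, Setd2, Setd1a and Dot1l to Rnf20 (5.96 ± 0.667 CPM per kb in KO and 5.20 ± 0.218 in WT), the ranges of neighbours overlapped over the 6 libraries, so no step between neighbours was resolved, although Ube2a (6.97 to 10.1 CPM per kb) and Rnf40 (7.32 to 8.86) lay wholly above Rnf20 (4.98 to 6.69). Suv39h1, at 2.09 ± 0.326 CPM per kb in KO and 2.62 ± 0.909 in WT, lay below Rnf20 in every library. Setd1b was last at 2.03 ± 0.374 CPM per kb in KO and 1.7 ± 0.745 in WT, overlapping with Suv39h1. Setd1a was thus present at a higher level per length than its paralog Setd1b in every library. With the longest annotated transcript in place of the exon union, 7 of the 10 places were the same, and Rnf20 moved up to the third place, above Rnf40. By that length Suv39h1 was above Setd1a in WT 2 (6.2 against 5.94 CPM per kb) and in WT 3 (3.68 against 3.58).

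**Figure D2:**
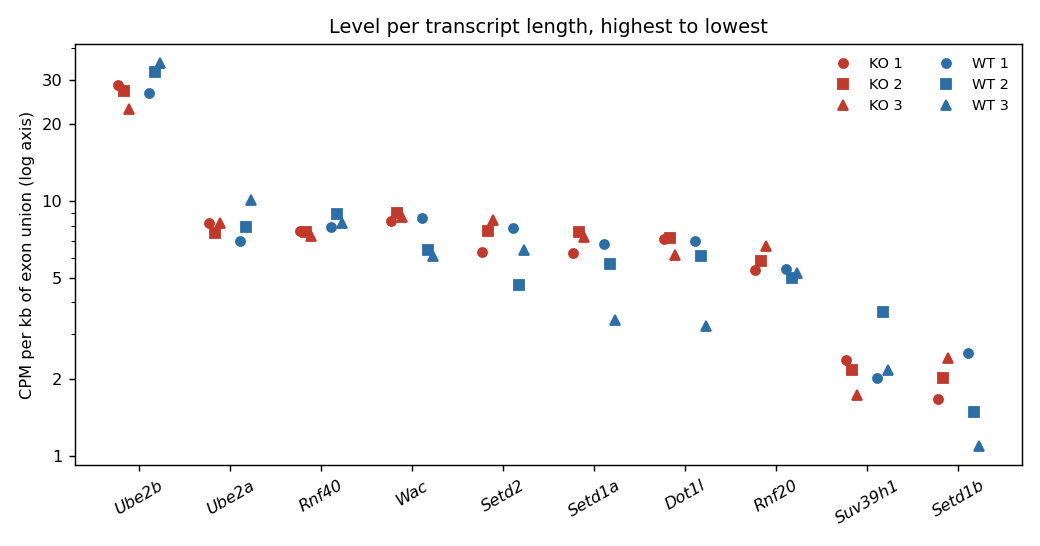
Level per kilobase of exon union (vertical log axis, CPM per kb) of each enzyme gene in the 3 KO (red) and 3 WT (blue) libraries, in order of the mean over all 6. Ube2b (23.0 to 34.8 CPM per kb) stands above a middle group of 7 genes. Suv39h1 and Setd1b (1.09 to 3.67 CPM per kb) stand below that group within each library. Across libraries the ranges overlap, since Dot1l (3.22) and Setd1a (3.42) in WT 3 lie under Suv39h1 in WT 2 (3.67).

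The controls varied more than the KO libraries for most of these genes. The coefficient of variation was larger in WT than in KO for 9 of the 10 members, all but Rnf20, as it was for 78.0% of all genes tested. Setd1b (18.4% in KO, 43.8% in WT), Dot1l (8.21% in KO, 36% in WT) and Suv39h1 (15.6% in KO, 34.7% in WT) varied most among the controls. Rnf40, by contrast, varied by 2.21% in KO and 5.87% in WT, below the medians of all genes (13.0% in KO and 23.4% in WT). WT 3 was the lowest of the 6 libraries for 4 members, and no member had its lowest or its highest value in KO 1.

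**Figure D3:**
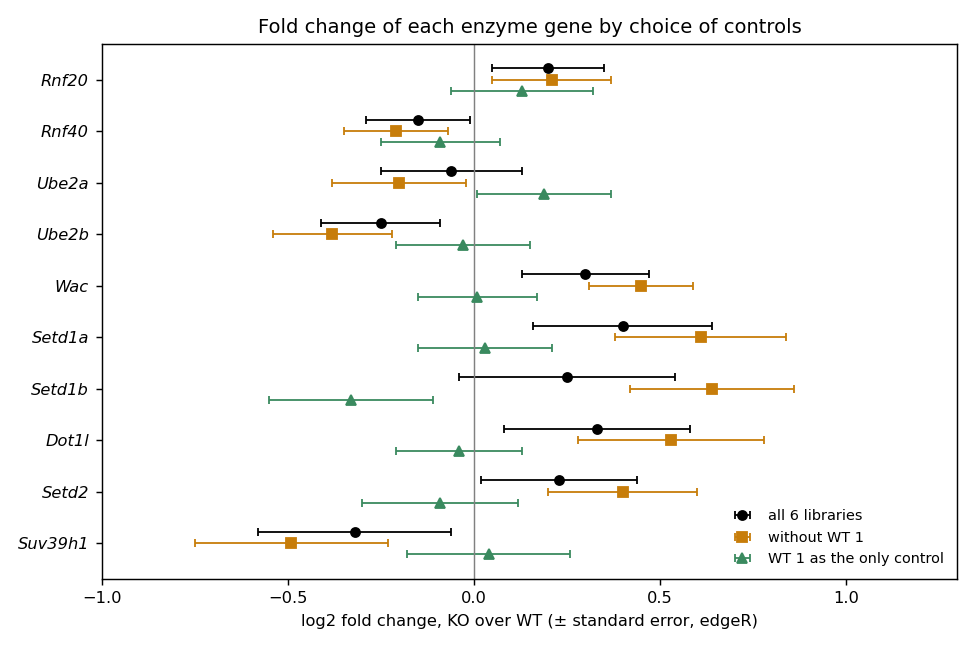
Log2 fold change of each enzyme gene, KO over WT, with its standard error, for all 6 libraries (black), without WT 1 (orange) and with WT 1 as the only control (green). The methyltransferases Setd1a, Setd1b, Dot1l and Setd2 lie at 0.40 to 0.64 without WT 1 and at -0.33 to 0.03 against WT 1 alone.

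Which controls entered the fit changed the size and the sign of several fold changes. Leaving out the lowest control, WT 3, gave 0.05 for Dot1l, 0.0035 for Setd1b, 0.16 for Setd1a and 0.20 for Wac. Leaving out WT 2 gave 0.05 for Setd2, where it was the lowest control, and -0.02 for Suv39h1, where it was the highest. Each library was picked as the extreme control of its gene, so these shifts toward 0 were given in advance. Without WT 1, Setd1b was at 0.64 ± 0.22, Setd1a at 0.61 ± 0.23, Dot1l at 0.53 ± 0.25, Wac at 0.45 ± 0.14 and Setd2 at 0.40 ± 0.20, and Ube2b was at -0.38 ± 0.16. In this edgeR fit no member reached an adjusted p under 0.05, as 2.96% of all genes did. An unadjusted p under 0.05 was reached by 4 members (Ube2b, Wac, Setd1a and Setd1b). The share of all genes at that unadjusted level was not taken for this fit, so the 4 cannot be read as an excess. Against WT 1 alone, a fit that assumes the lone control to vary like the KO libraries, 5 of the 10 members changed sign (Ube2a, Setd1b, Dot1l, Setd2 and Suv39h1) and the smallest adjusted p was 0.977. For Wac and Setd1a the positive difference shrank to 0.01 and 0.03. Rnf20 (0.13) and Rnf40 (-0.09) kept their signs with smaller values.

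Fold changes in this comparison also ran with transcript length, for all genes and not for the enzymes alone. With genes cut by length into 10 classes of equal size, the shortest class (median exon union 1.40 kb) had a median fold change of -0.23 on the log2 scale and the longest class (median 12.7 kb) one of 0.21. Against WT 1 alone the same classes had medians of 0.05 and -0.01. The short members Ube2a (2.27 kb) and Ube2b (2.13 kb) were negative, like genes of their length, and the long members Setd2 (10.8 kb) and Setd1b (12.1 kb) were positive, like theirs. Of the 10 members, 8 lay in the middle 50% of the genes in their length class. The exceptions were Setd1a (0.40 at 6.79 kb), above it, and Suv39h1 (-0.32 at 5.27 kb), below it. With trends on length and GC content removed, Setd1b moved to 0.06, Setd2 to 0.08, Ube2b to -0.07 and Ube2a to 0.11. In this edgeR fit Setd1a was at 0.33, Wac at 0.28, Dot1l at 0.22, Rnf20 at 0.11, Rnf40 at -0.20 and Suv39h1 at -0.34. No member passed (smallest adjusted p = 0.374).

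**Figure D4:**
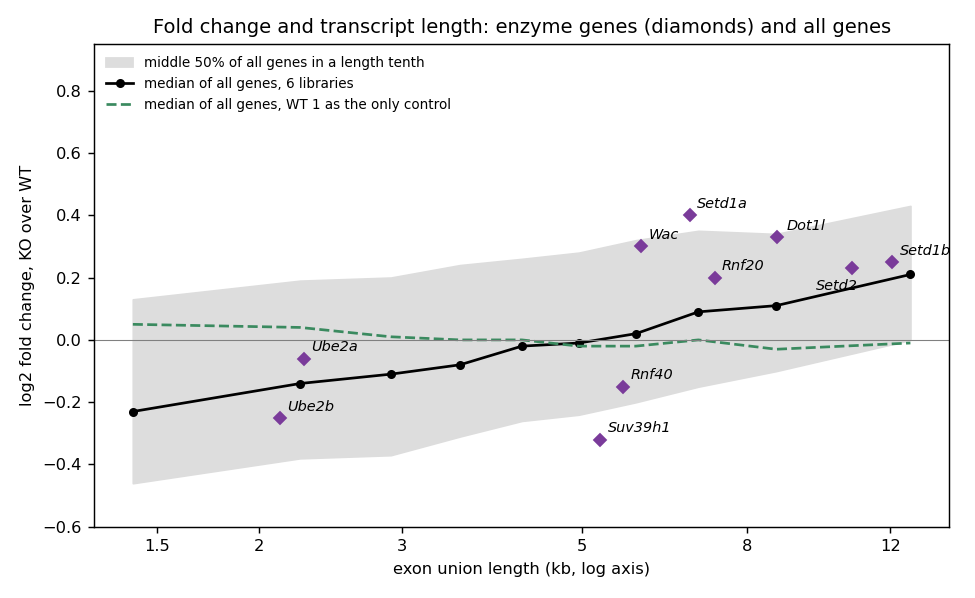
Log2 fold change, KO over WT, against exon union length (log axis, kb) for the 10 enzyme genes (diamonds), with the median (black line) and middle 50% (grey) of all genes in 10 length classes and the median with WT 1 as the only control (green dashes). The black line climbs with length between -0.23 and 0.21, the green line stays between -0.03 and 0.05, and 8 of the 10 diamonds lie within the middle 50% of their class.

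WT 3, the low library for Setd1a, Setd1b and Dot1l, was low for other genes of their make-up as well. These methyltransferases have long transcripts with 57.0%, 59.0% and 57.5% GC, compared with 44.3% in Setd2 and 41.8% in Wac. WT 3 was the lowest library for Wac too. Among the 415 tested genes with an exon union of at least 6 kb and 55 to 60% GC, the median log2 CPM relative to each gene's own mean was 0.07, 0.15 and 0.04 in KO 1, 2 and 3, against 0.10, 0.08 and -0.38 in WT 1, 2 and 3. On that scale WT 3 stood at -0.80 for Setd1a, -0.71 for Setd1b and -0.87 for Dot1l, below the median of the class. The limits of the class take in these genes. WT 3 stood at -0.35 for Wac and at 0.06 for Rnf40, which has 56.1% GC and an exon union of 5.62 kb. The part of length and GC content in these values was not tested beyond the fit with trends removed.

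The remaining genes of the same pathways were measured from lists of 66 genes, of which 64 passed the filter. None was called in either direction (smallest adjusted p = 0.277). At an unadjusted p under 0.05 there were 7 higher and 0 lower, against 8.26% of all genes higher and 6.35% lower. The fold change was positive for 42 and negative for 22, with a median of 0.08, and against WT 1 alone the median was -0.01. Every KO library lay above every WT library for 6 of the 64 (10.6% of all genes) and below for 2 (9.81% of all genes).

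Within the Paf1 complex, 2 of 6 subunits had an unadjusted p under 0.05, both higher and neither called. Paf1, the subunit that names the complex and was singled out after its value was seen, measured 32.7 ± 2.57 CPM in KO and 24.6 ± 3.23 CPM in WT (0.41 ± 0.16, adjusted p = 0.320). Rtf1, the subunit that stimulates H2B ubiquitination, measured 28.3 ± 1.49 CPM in KO and 21.3 ± 3.02 CPM in WT (0.41 ± 0.16, adjusted p = 0.320). In both genes every KO library was above every WT library. Skic8, a subunit shared with the cytoplasmic Ski complex, leaned the other way at 20.1 ± 2.04 CPM in KO and 24.9 ± 3.91 CPM in WT (-0.30 ± 0.18). So did Cdc73 (-0.36 ± 0.22).

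SETD1A and SETD1B work within larger complexes, whose other subunits were mostly lower in mean. Of 7 core and SET1 subunits of COMPASS, the H3K4 methyltransferase complex, 6 had a negative fold change (median -0.18), and 0 reached an unadjusted p under 0.05. The scaffold subunit Wdr5 measured 32.10, 32.11 and 30.69 CPM in KO, against 34.45, 41.87 and 41.92 CPM in WT. All KO libraries were below all controls (-0.32 ± 0.15, adjusted p = 0.360). Hcfc1, a host cell factor found in several chromatin complexes, was the only positive one, at 0.06 ± 0.19. Among the catalytic subunits of the related MLL-type complexes, Kmt2c measured 65.3 ± 11.5 CPM in KO and 40.0 ± 16.0 CPM in WT (0.70 ± 0.27, adjusted p = 0.311). Kmt2d (0.80 ± 0.35) and Kmt2a (0.59 ± 0.24), named after their values were seen, also had an unadjusted p under 0.05 and overlapping groups. Pagr1a, a small partner of the KMT2C and KMT2D complexes, was at -0.26 ± 0.25, and the list of 10 had a median of 0.26, or 0.07 against WT 1 alone.

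DOT1L acts with AF9, AF10 and related proteins, encoded by Mllt genes. The list labelled DOT1L partners also held Aff1 and Aff4, which encode elongation scaffolds. All 6 genes of the list had a positive fold change (median 0.38), 0 with an unadjusted p under 0.05 in edgeR. Aff1 measured 55.08, 57.40 and 51.09 CPM in KO, against 53.16, 34.57 and 23.53 CPM in WT, so WT 1 lay within the KO range and WT 3 was lowest, as for Dot1l. Aff1 had a fold change of 0.55 ± 0.26 (adjusted p = 0.354), and the median of the list was 0.09 against WT 1 alone.

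Among the other H3K36 methyltransferases, 4 of 6 were positive and 2 had an unadjusted p under 0.05. Nsd3, which dimethylates H3K36, had the smallest p of the 64 genes. It measured 43.92, 46.07 and 40.64 CPM in KO, against 34.49, 25.59 and 29.56 CPM in WT, with every KO library above every control including WT 1. Its fold change was 0.54 ± 0.16 (adjusted p = 0.277). Ash1l, named after its value was seen, was at 0.62 ± 0.27 with overlapping groups. Smyd2, a SET-domain lysine methyltransferase, was at -0.24 ± 0.17. The 8 other H3K9 methyltransferases and HP1 proteins split evenly, 4 positive and 4 negative (median 0.01), with the paralog Suv39h2 at 0.33 ± 0.33 and the H3K9 reader Cbx1 at -0.22 ± 0.17.

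Enzymes that remove the same marks gave 0 genes with an unadjusted p under 0.05. Of the 10 H2B deubiquitinases and module subunits, Usp44 and Usp51 had at most 2 counts in any library and were not tested. The remaining 8 had a median of 0.12. Atxn7, which anchors the deubiquitinase module in the SAGA complex, measured 20.04, 24.05 and 20.16 CPM in KO, against 18.75, 16.55 and 9.553 CPM in WT. Its groups did not overlap, and the fold change was 0.52 ± 0.25 (adjusted p = 0.360). The deubiquitinase Usp3 was at -0.28 ± 0.19. The 5 H3K4 demethylases had a median of 0.18, with Kdm5b at 0.20 ± 0.18. The 8 demethylases of H3K36 and H3K9 had a median of 0.08, with Kdm3a, an H3K9 demethylase induced by hypoxia, at 0.40 ± 0.18 and Kdm4b at -0.22 ± 0.15.

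**Figure D5:**
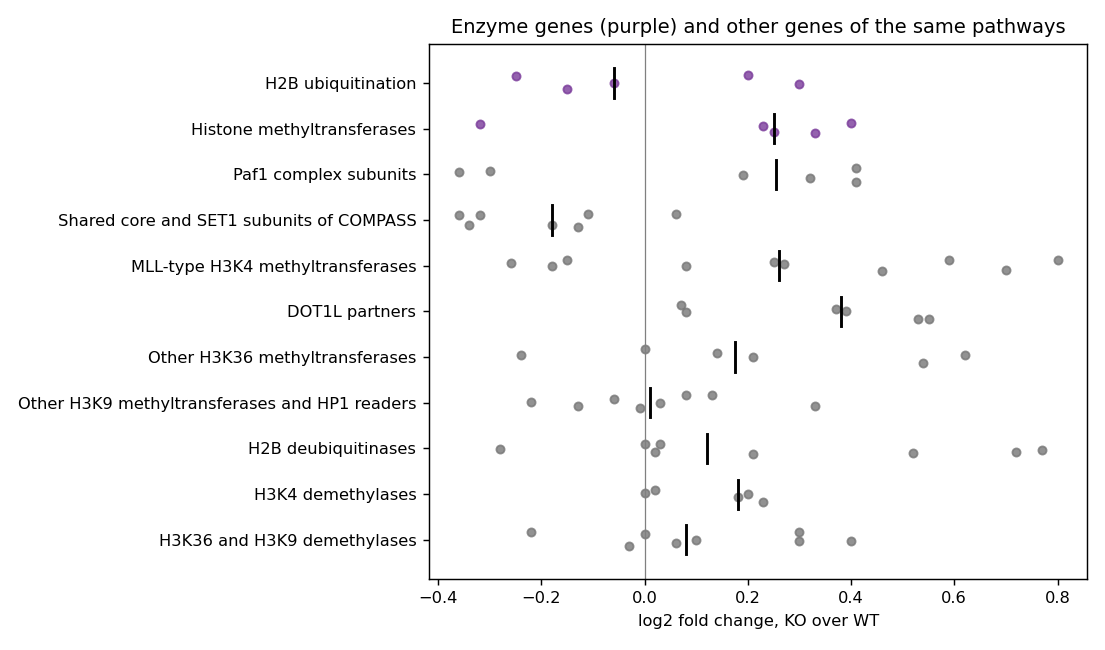
Log2 fold change, KO over WT, of each tested gene (points) in the enzyme group (purple, 2 upper rows) and in 9 lists of other genes of the same pathways (grey), with the median of each list as a black bar. The medians run from -0.18 for the COMPASS core to 0.38 for the list labelled DOT1L partners, and no gene in any row passed the adjusted threshold.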

How the data were processed

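RNA sequencing counts of 3 KO and 3 WT libraries were analysed. The authors deposited unnormalized whole-number counts for each gene. CASAVA 1.7, Subread, featureCounts and the build mm10 are listed per the submitters' processing notes. RNA selection, strand use and the handling of reads that match several genes are not stated in the labels. Gene names and positions came from RefSeq (GRCm38.p6, the same assembly as mm10) and exon lengths and GC from GENCODE M21. Of 27179 IDs, 1886 had no name and were kept.

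Genes were filtered with filterByExpr, scaled with TMM (factors 0.813 to 1.091) and tested, two-sided, by quasi-likelihood in edgeR 4.0.16 in R 4.3.3 on all 6 libraries without covariates, with Benjamini-Hochberg adjustment over 13505 genes at 0.05. CPM are TMM-scaled, errors of CPM are SD (n = 3), and errors and 95% intervals of log2 fold changes come from the same fit. The biological coefficient of variation was 24.2%. All pairs of libraries differed beyond sampling noise (chi-square per degree of freedom at least 18.3). The code was tested on simulated data. Alternatives used limma 3.58.1 and DESeq2 1.42.0, other scalings and filters, and fewer libraries. WT 1 as the only control was added after seeing the data. Members and lists were chosen with earlier results of these data known. In each pathway list the gene of smallest p in each direction with a mean of at least 1 CPM was named. Protein and promoter sequences were not used here.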

Additional observations from a re-analysis of the deposited data

How the results depend on the processing

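No member was called under any of the 18 alternatives. Of 180 recomputed member fold changes 172 kept their direction. Those that turned were Rnf20 with library size alone (-0.02), Ube2a without WT 3 (0.09, with -0.2 to 0.09 over the libraries left out in turn), with length and GC trends removed (0.11) and against WT 1 alone (0.19), and, against WT 1 alone, Setd1b (-0.33), Dot1l (-0.04), Setd2 (-0.09) and Suv39h1 (0.04). Library size alone shifted the median of all genes to -0.21, so that Rnf20 stayed above it. Over all genes edgeR called 0, but 24 without a filter, 236 with the replicate number as a block, and 0 to 409 when each library was left out in turn, the 409 (294 higher, 115 lower) without WT 1. DESeq2 called 289 (258 higher, 31 lower) and voom 0. The causes were not tested. The labels state no pairing by replicate number, and the correlations between libraries did not settle it. Same-numbered deviations correlated at 0.115, -0.074 and 0.222. KO 1 and KO 3 correlated best with their own number, while KO 2 correlated best with WT 1 (0.347). With the replicate block the smallest adjusted p of a member was 0.361. Depth limits Suv39h1 most, with 111 to 278 counts per library.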
